A study of Mus musculus with 8 samples.

Results

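The genes described here build and run the mitotic spindle. A list of 49 mitosis and spindle genes, named by gene symbol, was looked up among the 18138 gene symbols of an Illumina mouse bead array, and 44 of them were found, with 69 of the 25697 probes. Nuf2, Kif20a, Cdkn3, Racgap1 and Cenpf matched no row and were not analysed here. RNA came from bone marrow-derived macrophages, grown from bone marrow of female mice, 8 weeks old and labelled strain C57bl/6J, for 7 days in medium with GM-CSF (10 ng per ml), a growth factor for myeloid cells that all 4 groups received. Bone marrow donors were wild type (WT) or lacked inducible nitric oxide synthase (iNOS-/-), the enzyme with which activated macrophages make nitric oxide. The methods name the B6.129P2-Nos2tm1Lau/J line, in which the gene is disrupted in every cell of the mouse. Cells were left unstimulated or were given LPS (200 ng per ml) plus IFN-γ (10 ng per ml) for 6 h, which drives the inflammatory state called M1. Unstimulated and M1 cells of either genotype make 4 groups of 2 arrays, 8 in all. No label tells whether the 2 came from separate mice or cultures. Adjusted p-values therefore measure the spread between arrays, which may be technical.

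As background, cyclin B with CDK1 drives a cell into mitosis, polo-like and aurora kinases build the spindle, and kinetochores tie chromosomes to its microtubules. The spindle checkpoint holds back the anaphase-promoting complex (APC/C) until every chromosome is attached, after which separase cuts the cohesin that joins sister chromatids and the cell divides. Transcripts of these genes are made mainly in G2 and M phase, under FOXM1 and the MYB-MuvB complex, so in a bulk sample they are widely read as a sign of dividing cells. Bone marrow cultures in GM-CSF hold dividing precursors beside macrophages, and macrophages that receive LPS are known to slow or stop their division. In bulk RNA of this kind, fewer dividing cells and less RNA per dividing cell cannot be told apart.

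Of the 69 member probes, 57 from 38 genes were tested, having a detection p-value below 0.05 on 2 or more arrays. The other 12 were detected on at most 1 array, and they include every probe of Ccnb2, Cks2, Cenpe, Bub1, Hmmr and Ect2. Per array, 11833 to 12673 of all probes and 44 to 57 of the 69 member probes were detected. Values are log2 intensities after scaling to the mean array and a floor of 1, and the median absolute difference over member probes was 0.141 to 0.196 between arrays of 1 group and 0.205 to 1.83 between arrays of different groups. Nos2, the targeted gene, was undetected on all 4 unstimulated arrays and had log2 intensities of 7.47 and 7.05 in WT M1 and 7.49 and 7.67 in iNOS-/- M1 cells, a difference between M1 groups of 0.32 (SE 0.32, adjusted p = 0.445, limma), so its probe does not check the genotype labels. Whether that probe lies in the disrupted part is not given in the sources used here, and iNOS-/- below means the arrays labelled so. Each of the 11 macrophage markers on the array, Csf1r and Cd68 among them, was detected on every array. Of 9 lymphocyte markers, 8 were detected on no array, as were the stromal genes Col1a1 and Col3a1.

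Mitotic transcripts rose with LPS plus IFN-γ in WT cells and fell with the same treatment in iNOS-/- cells. In WT cells 41 of the 57 member probes were called higher (adjusted p under 0.05, limma with Benjamini-Hochberg adjustment over 13868 probes) and 0 lower, against 20.8% of all tested probes higher and 14.3% lower (35.1% called in all). In iNOS-/- cells 3 member probes were higher and 42 lower, against 25.2% and 25.1% of all probes (50.3% called in all). The median difference between M1 and unstimulated cells was 1.51 on the log2 scale for member probes in WT cells (0.09 for all probes) and -1.82 in iNOS-/- cells (0 for all probes). With probes undetected on both arrays of a group set at their bounds, these medians were 1.42 and -1.62. Of all probes called in WT cells, 59.3% were higher. That share was 44.4% after neqc, 47.4% under quantile normalization and 49% where the scaling line was given an intercept, and the member median stayed above 0 under each of these. After neqc the member medians were 0.87 in WT and -1.19 in iNOS-/- cells.

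**Figure D1:**
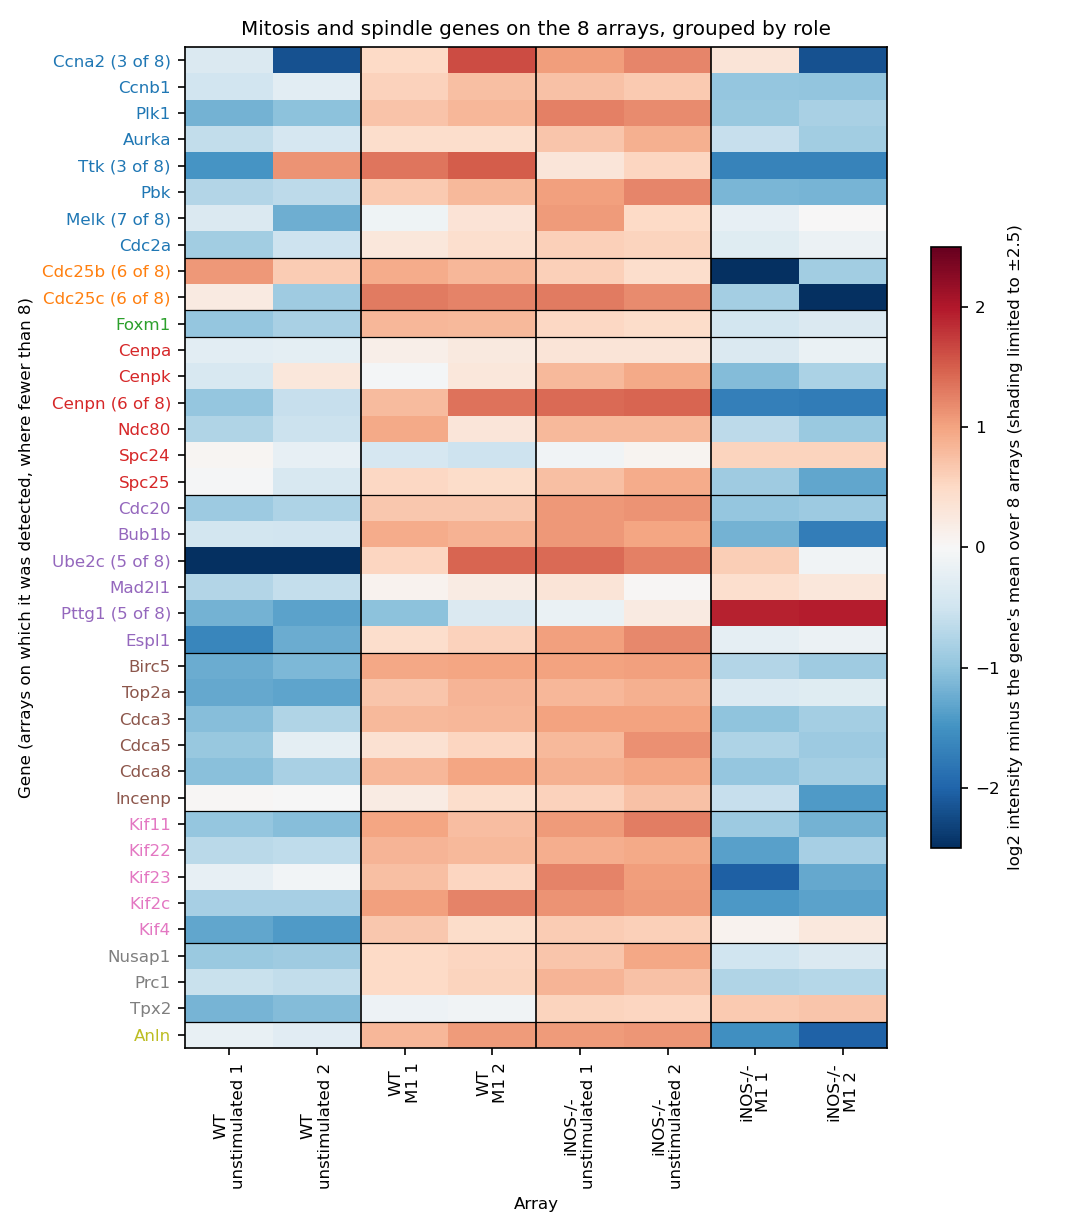
Log2 intensity of the 38 tested mitosis and spindle genes (rows, brightest probe of each gene, coloured by role) on the 8 arrays (columns), shown as the difference from each gene's own mean, with shading limited to 2.5 either way. The WT M1 and iNOS-/- unstimulated arrays are mostly red and the WT unstimulated and iNOS-/- M1 arrays mostly blue, while Spc24 and Pttg1 are highest in iNOS-/- M1 cells.

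The genotypes differed before stimulation as well. Unstimulated iNOS-/- cells were above unstimulated WT cells at 46 of 57 member probes (0 lower), against 16.7% of all probes higher and 15.4% lower (32.2% called in all), with a median difference of 1.58 (0 for all probes). After stimulation the order was turned, and iNOS-/- M1 cells were below WT M1 cells at 43 member probes and above them at 4, against 25.3% and 22.9% of all probes (48.2% called in all), with a median of -1.59 (-0.03 for all probes). The difference in response, which is the change in iNOS-/- cells minus the change in WT cells, was called negative at 49 member probes and positive at 3, against 22.6% and 19.4% of all probes (42% called in all), with a median of -3.31 (-0.05 for all probes). After neqc that median was -1.94 (0.03 for all probes). These 5 comparisons draw on the same 8 arrays, each group entering several of them, so they are not separate pieces of evidence. Over the 39 member probes detected on all 8 arrays, which no group's brightness selected, 35 rose and 0 fell in WT cells. In iNOS-/- cells 1 rose and 35 fell, and the difference in response was called negative at 38 and positive at 1. A fit of only the 9687 probes detected on all 8 arrays called more of them. It called 51.8% in WT cells, 65% in iNOS-/- cells and 59.1% for the difference in response. Of these calls 55.2%, 50.8% and 49.6% were higher. In that fit 36 member probes rose and 1 fell in WT cells, and the other member counts were the same.

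Array by array, the groups were well apart. The median log2 intensity over the 57 probes was 5 and 5.22 in WT unstimulated, 6.69 and 6.59 in WT M1, 6.9 and 7.05 in iNOS-/- unstimulated, and 5 and 4.98 in iNOS-/- M1 cells. The lowest and highest pairs of groups thus crossed between genotypes. Both WT M1 arrays lay above both WT unstimulated arrays at 50 member probes (87.7%), against 39.9% of all probes. Both iNOS-/- M1 arrays lay below both iNOS-/- unstimulated arrays at 51 (89.5%), against 38.2%. For 46 member probes (80.7%) both held at once, against 13.9% of all probes, and 36 (63.2%, from 25 genes by their brightest probe) were called higher in WT and lower in iNOS-/- cells, against 4.94%.

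WT M1 and iNOS-/- unstimulated cells were close in these genes, with a median absolute difference over member probes of 0.205 to 0.293 between their arrays. Over all probes that pair was also the nearest of different groups (0.344 to 0.363). WT unstimulated and iNOS-/- M1 cells had like medians, but single probes differed in both directions. Between their arrays the median absolute difference was 0.625 to 0.735 over member probes and 0.81 to 0.822 over all probes. The median over member probes of iNOS-/- unstimulated minus WT M1 was 0.2, with 47 probes above 0 and 10 below, and both arrays of the former lay above both of the latter at 31 probes (54.4%, against 26.7% of all probes). The median of iNOS-/- M1 minus WT unstimulated was -0.04, with 26 probes above 0 and 31 below, and the arrays of the former lay below those of the latter at 21 probes (36.8%, against 37.3% of all probes, near that background). Neither pair is a comparison of the design and neither was tested. By group mean, 18 of 38 genes ran from iNOS-/- unstimulated through WT M1 and WT unstimulated down to iNOS-/- M1, among them Ccnb1, Cdc20 and Kif11. In 11 genes, such as Top2a, Birc5 and Cdc2a, the order was the same except that WT unstimulated cells were lowest.

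**Figure D2:**
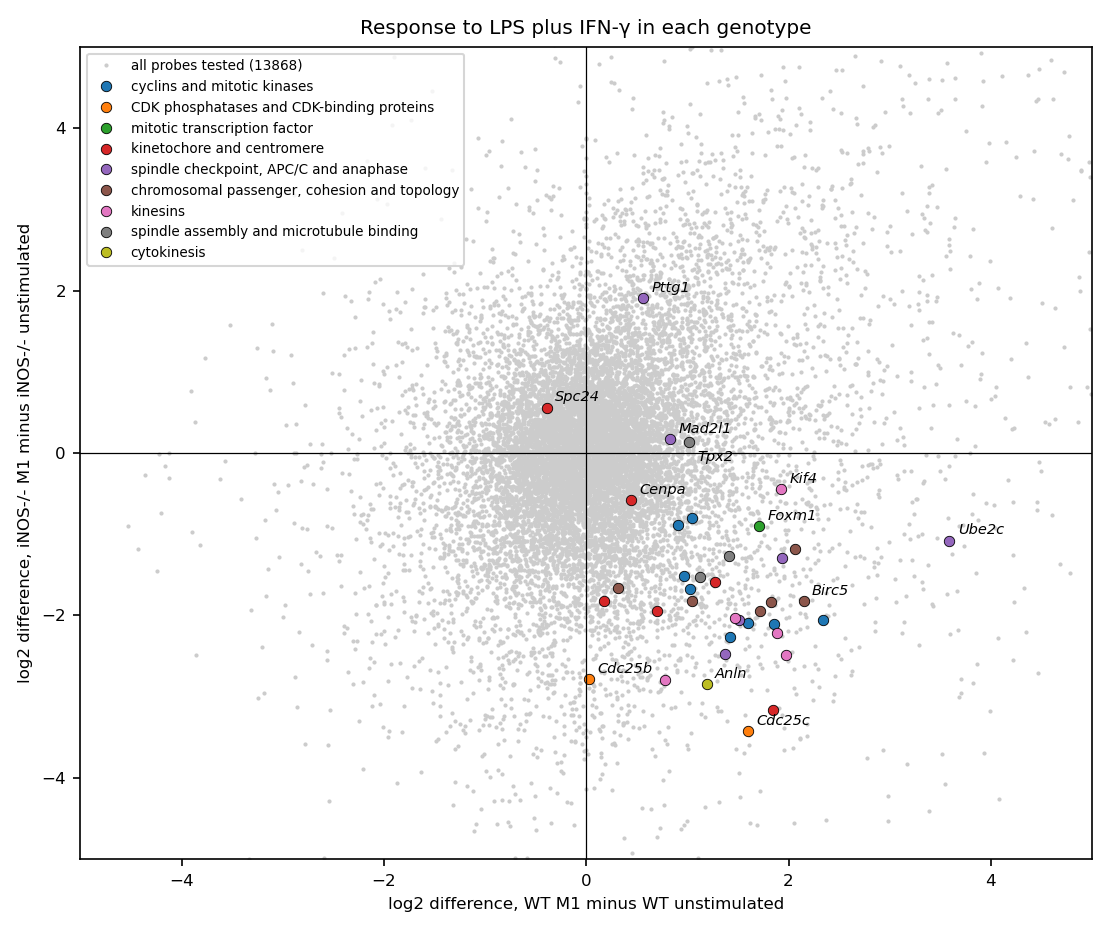
Response to LPS plus IFN-γ as the log2 difference between M1 and unstimulated cells, WT on the horizontal and iNOS-/- on the vertical axis, for all 13868 tested probes (grey, those past 5 either way not drawn) and the 38 tested genes coloured by role. Most mitotic genes lie in the lower right quadrant, higher in WT M1 and lower in iNOS-/- M1 cells, while Pttg1, Spc24, Mad2l1 and Tpx2 lie above the horizontal 0 line.

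Markers of other cells moved between the same groups, and their part in the mitotic values was not tested. The summed intensity of 10 dendritic cell markers was 882 to 900 in WT unstimulated, 12700 to 13300 in WT M1, 10700 to 11700 in iNOS-/- unstimulated and 25300 to 25700 in iNOS-/- M1 cells, with Flt3 detected nowhere. That sum was higher in the M1 cells of either genotype. For 11 macrophage markers the sum was 40600 to 41300, 42400 to 46600, 31300 to 33100 and 45700 in the same order of groups. The sum over 12 granulocyte markers was 1220 to 1230, 1470 to 1570, 1750 to 1810 and 3940 to 4080, with Mpo, Prtn3, Retnlg and Ctsg detected nowhere. Progenitor markers (6 on the array, Myb and Hoxa9 detected nowhere) summed to 46.5 to 60.2, 175 to 193, 219 to 224 and 320 to 336, so the progenitor, granulocyte and dendritic cell sums were each highest in iNOS-/- M1 cells. Sums follow the brightest probes, and single markers went other ways. With stimulation in iNOS-/- cells, 6 of 8 tested dendritic cell markers were higher and 1 (Cd209a) lower, 5 of 8 granulocyte markers were higher and 0 lower, and of 4 progenitor markers Gata2 was higher (1.02) and Meis1 lower (-0.98). Of the 11 macrophage markers, 3 were higher and 4 lower with stimulation in iNOS-/- cells. Over all probes 25.2% were higher and 25.1% lower there. In WT cells 7 dendritic cell markers were higher and 0 lower, 4 granulocyte markers higher and 1 lower, and 3 progenitor markers higher and 0 lower. Macrophage markers in WT cells were higher in 3 cases and lower in 2. The shares over all probes in WT cells were 20.8% and 14.3%. Over 6 mast cell and basophil markers the sum was 8.36 to 11, 41.3 to 45.3, 94.9 to 116 and 130 to 133, with Mcpt8, Ms4a2 and Mcpt4 detected nowhere. Of the 3 tested, 2 were called higher with stimulation in WT cells and 0 were called in iNOS-/- cells.

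Because these genes moved together, their promoters are shown. Many mitotic promoters carry a CHR element, which MuvB complexes bind, a short way after CCAAT boxes, which the factor NF-Y binds. RefSeq promoter windows (GRCm38.p6, from 250 bases before to 50 after the annotated start) were matched for 37 of the 44 genes, in 41 windows. Ccna2, Foxm1, Incenp, Tpx2, Spc24, Pbk and Cdc25c had no entry. The CHR letters TTTGAA were searched on both strands (TTCAAA on the other) and stood in 28 of 41 windows and in 26 of 37 genes (70.3%), against 17.9% of 32851 windows and 20.2% of 27025 genes in the table. The letters CCAAT, or ATTGG where read from the opposite strand, stood in 32 windows and 28 genes (75.7%), against 37.4% of windows and 41.1% of genes. Windows with both numbered 24, from 22 genes (59.5%), against 6.95% of windows and 7.97% of genes. A match is a description of letters and not a binding site.

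The last 150 bases before the start are printed for 8 genes, 6 that hold both motifs and whose transcripts span several steps of mitosis, and Birc5 and Mad2l1, which hold neither. Capitals mark CHR and CCAAT letters on either strand, and each stretch reads 5′ to 3′ in the direction of the gene. On the plus strand lie Espl1 (chr15:102296143-102296292), Kif11 (chr19:37376232-37376381), Ube2c (chr2:164769779-164769928), Birc5 (chr11:117849087-117849236) and Mad2l1 (chr6:66535071-66535220). On the minus strand lie Cdc2a, now named Cdk1 (chr10:69352913-69353062), Cdc20 (chr4:118437344-118437493) and Top2a (chr11:99024190-99024339).
Cdc2a: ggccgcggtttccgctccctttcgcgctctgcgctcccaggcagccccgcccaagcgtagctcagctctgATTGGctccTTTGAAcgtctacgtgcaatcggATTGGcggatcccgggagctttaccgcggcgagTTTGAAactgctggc
Cdc20: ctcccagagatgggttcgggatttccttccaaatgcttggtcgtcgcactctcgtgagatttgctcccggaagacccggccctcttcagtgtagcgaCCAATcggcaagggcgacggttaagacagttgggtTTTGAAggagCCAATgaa
Espl1: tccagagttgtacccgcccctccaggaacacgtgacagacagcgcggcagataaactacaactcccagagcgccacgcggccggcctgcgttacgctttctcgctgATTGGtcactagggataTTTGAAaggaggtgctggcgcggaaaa
Top2a: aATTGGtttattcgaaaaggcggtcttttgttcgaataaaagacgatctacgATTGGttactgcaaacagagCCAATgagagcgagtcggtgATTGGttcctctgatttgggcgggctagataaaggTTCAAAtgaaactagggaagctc
Kif11: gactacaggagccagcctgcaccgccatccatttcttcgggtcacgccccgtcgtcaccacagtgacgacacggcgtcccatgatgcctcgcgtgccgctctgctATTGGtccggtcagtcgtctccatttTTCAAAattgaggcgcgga
Ube2c: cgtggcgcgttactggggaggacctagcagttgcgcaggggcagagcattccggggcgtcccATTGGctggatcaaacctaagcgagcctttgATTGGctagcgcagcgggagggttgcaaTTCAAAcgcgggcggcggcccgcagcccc
Birc5: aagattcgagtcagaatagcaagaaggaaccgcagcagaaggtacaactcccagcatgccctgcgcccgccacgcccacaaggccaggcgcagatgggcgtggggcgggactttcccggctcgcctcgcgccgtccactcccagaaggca
Mad2l1: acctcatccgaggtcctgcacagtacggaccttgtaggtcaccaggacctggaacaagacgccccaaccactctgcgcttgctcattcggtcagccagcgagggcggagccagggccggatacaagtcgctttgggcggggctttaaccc

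The first base of the CHR letters stood at -15 and -71 from the start in Cdc2a, -18 in Cdc20, -27 in Espl1, -23 in Top2a, -19 in Kif11 and -29 in Ube2c. Taking 1 window per gene, 27 of 33 CHR matches lay within 50 bases of the start on either side (median -5) and 49 of 65 CCAAT matches from -120 to -1 (median -58), and 1 CHR match overlapped a CCAAT match. Among tested genes, the 19 with both motifs had a median difference in response of -3.56 (from -5.01 in Cenpn to -1.02 in Cenpa). The 4 with CHR letters alone (Ndc80, Cdca5, Kif2c, Anln) had a median of -3.46 and the 3 with CCAAT alone (Ccnb1, Cdc25b, Cenpk) of -2.71. Melk, Mad2l1, Pttg1, Birc5 and Nusap1, with neither, had a median of -1.79 and ran from -3.98 in Birc5 to 1.36 in Pttg1. No test was made between these classes, and Birc5, with no match in its window, moved like genes with both.

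**Figure D3:**
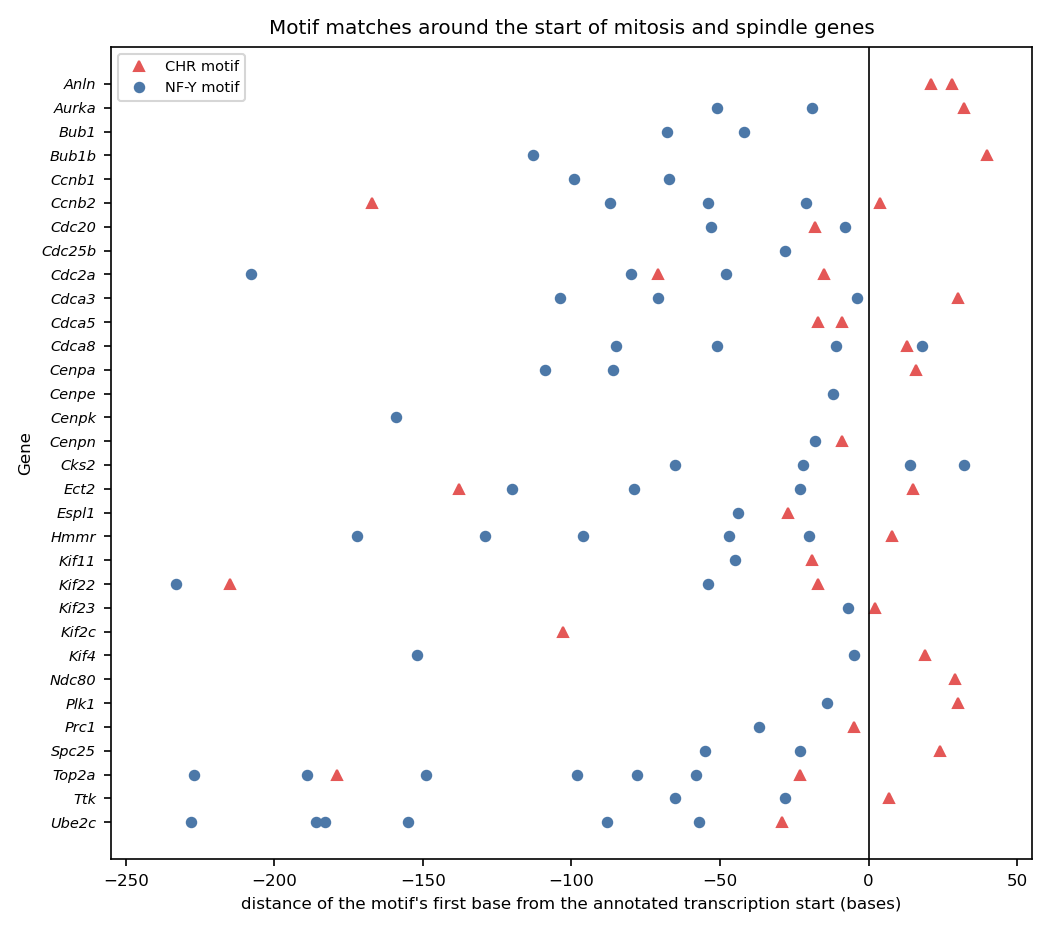
Distance of the first base of each CHR motif (triangles) and NF-Y motif (CCAAT letters, circles) from the annotated transcription start, in bases, 1 window per gene, for the mitosis and spindle genes with a match. Of 33 CHR matches 27 lie within 50 bases of the start, and 49 of 65 NF-Y matches lie in the 120 bases before it.

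Cyclins and mitotic kinases start mitosis. Of 8 tested genes, 5 rose in WT cells (Ccnb1, Plk1, Aurka, Pbk and Cdc2a) and the same 5 fell in iNOS-/- cells, with 0 in the opposite directions. The shares over all probes, which apply to the following roles as well, were 20.8% higher and 14.3% lower in WT cells. In iNOS-/- cells they were 25.2% higher and 25.1% lower. Ccnb1 encodes cyclin B1, the activating partner of CDK1. Its log2 intensity was 6.94 and 7.17 in WT unstimulated, 8 and 8.17 in WT M1, 8.16 and 8.08 in iNOS-/- unstimulated and 6.45 and 6.43 in iNOS-/- M1 cells. WT M1 and iNOS-/- unstimulated arrays overlapped, and iNOS-/- M1 arrays lay below all others. The rise in WT cells was 2.04-fold (log2 1.03, SE 0.12, adjusted p = 0.0027) and the fall in iNOS-/- cells 3.20-fold (log2 -1.68, SE 0.12, adjusted p = 0.00026), a difference in response of -2.71 (SE 0.17, adjusted p = 0.00046). A further Ccnb1 probe gave 1.16 and -1.88.

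Cdc2a is the array's name for Cdk1, the kinase that cyclin B1 activates. Its brightest probe read 6.67 and 7.02 in WT unstimulated, 7.82 and 7.97 in WT M1, 8.13 and 8.10 in iNOS-/- unstimulated and 7.25 and 7.39 in iNOS-/- M1 cells. Here the WT unstimulated arrays were lowest and no 2 groups overlapped. The changes were 1.05 in WT cells (adjusted p = 0.0048) and -0.80 in iNOS-/- cells (adjusted p = 0.0069). Plk1, the polo-like kinase that acts on centrosomes and kinetochores, rose 3.64-fold in WT cells and fell 4.29-fold in iNOS-/- cells. For Pbk, a mitotic kinase, the values were 2.67-fold and 4.81-fold, and for Aurka, which matures centrosomes and helps form spindle poles, 1.95-fold and 2.84-fold. Unstimulated iNOS-/- cells exceeded unstimulated WT cells 4.98-fold in Plk1, the widest gap by brightest probe among the kinases.

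The remaining 3 genes of this role were near background. Ccna2, cyclin A2, which acts from S phase into early mitosis, was detected on 3 arrays, none of them WT unstimulated or iNOS-/- M1, so its fitted difference in response, which was not called (-4.40, SE 1.44, adjusted p = 0.059), rests on floored values. Against background it was at least 1.69-fold higher in WT M1 than WT unstimulated and at least 1.33-fold lower in iNOS-/- M1 than iNOS-/- unstimulated cells, neither called. It read 1.82 and 0.00 in WT unstimulated, 2.69 and 3.81 in WT M1, 3.22 and 3.41 in iNOS-/- unstimulated and 2.51 and 0.00 in iNOS-/- M1 cells. Its arrays of 1 group differed by over 1 log2 unit in 3 of 4 groups. The checkpoint kinase Ttk, detected on 3 arrays, was called between the M1 groups (at least 1.14-fold lower in iNOS-/-, adjusted p = 0.027). That call was lost without any of 6 single arrays, of all but the WT unstimulated group. Melk, a kinase of cycling cells, gave 0.91 in WT and -0.89 in iNOS-/- cells at its brightest probe, neither called, and was higher in unstimulated iNOS-/- cells (2.98-fold, adjusted p = 0.025). That call was lost without WT unstimulated replicate 2 or either iNOS-/- unstimulated array (1.15 to 1.86), and the Melk difference in response in 7 of 8 fits (-2.08 to -1.37), all but that without WT unstimulated replicate 1. A dimmer Melk probe, detected on 5 arrays and undetected in WT unstimulated cells, rose at least 4.82-fold in WT cells (adjusted p = 0.0042, limma). It gave -1.12 in iNOS-/- cells (adjusted p = 0.038) and -2.26 between the M1 groups (adjusted p = 0.0037). The call of Cdc2a between the M1 groups (-0.58, adjusted p = 0.023) was lost without any of the 4 M1 arrays (-0.65 to -0.51).

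CDC25 phosphatases remove the phosphates that hold CDK1 inactive. Both tested members fell in iNOS-/- cells, Cdc25b at least 2.41-fold (adjusted p = 0.045) and Cdc25c at least 3.6-fold (adjusted p = 0.024), and neither was called in WT cells. Cdc25c read 3.73 and 2.62 in WT unstimulated, 4.80 and 4.75 in WT M1, 4.81 and 4.68 in iNOS-/- unstimulated and 2.65 and 0.00 in iNOS-/- M1 cells, where it was undetected on both arrays. WT M1 and iNOS-/- unstimulated arrays were alike and clearly above the other 4, and the WT unstimulated arrays were far apart. A further Cdc25c probe, undetected in WT unstimulated and iNOS-/- M1 cells, rose at least 3.29-fold in WT cells (adjusted p = 0.0068) and fell at least 2.85-fold in iNOS-/- cells (adjusted p = 0.0015). Cdc25b stood at 4.74 and 4.28, 4.58 and 4.48, and 4.25 and 4.08 in WT unstimulated, WT M1 and iNOS-/- unstimulated cells and was undetected in iNOS-/- M1 cells. Its call in iNOS-/- cells was lost without any 1 array outside the iNOS-/- M1 group (adjusted p from 0.0746 to 0.148). The Cdc25c call in iNOS-/- cells was lost without either iNOS-/- unstimulated array (adjusted p from 0.0863 to 0.0952). Between the M1 groups Cdc25b was at least 3.10-fold and Cdc25c at least 3.67-fold lower in iNOS-/- cells (adjusted p = 0.032 and 0.025). These calls were lost without any 1 array outside the iNOS-/- M1 group for Cdc25b (adjusted p from 0.0571 to 0.111) and without either WT M1 array for Cdc25c (adjusted p from 0.0898 to 0.0922). The Cdc25c difference in response was called (-5.02, SE 1.25, adjusted p = 0.026) and lost its call in 5 of 8 fits (-5.08 to -4.47), those without WT unstimulated replicate 2, either WT M1 array or either iNOS-/- unstimulated array. Over all 8 fits it ran from -6.34 (without iNOS-/- M1 replicate 1) to -3.7 (without iNOS-/- M1 replicate 2). Fitted falls in iNOS-/- cells were -2.78 for Cdc25b and -3.42 for Cdc25c, and without iNOS-/- M1 replicate 1 that of Cdc25b was -1.39, as without iNOS-/- M1 replicate 2 that of Cdc25c was -2.1. Likewise the fitted differences between the M1 groups, -3.15 and -3.45, became -1.76 and -2.13.

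Foxm1 encodes the forkhead factor that switches on G2 and M phase genes. It read 4.48 and 4.64 in WT unstimulated, 6.28 and 6.27 in WT M1, 5.98 and 5.91 in iNOS-/- unstimulated and 5 and 5.09 in iNOS-/- M1 cells. All 4 groups were apart, with WT M1 highest, which sets it aside from most members. It rose 3.27-fold in WT cells (log2 1.71, SE 0.09, adjusted p = 0.00024) and fell 1.87-fold in iNOS-/- cells (log2 -0.90, SE 0.09, adjusted p = 0.00096), a difference in response of -2.61 (SE 0.13, adjusted p = 0.0003). The other Foxm1 probe gave 1.81 and -1.49, both called.

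**Figure D4:**
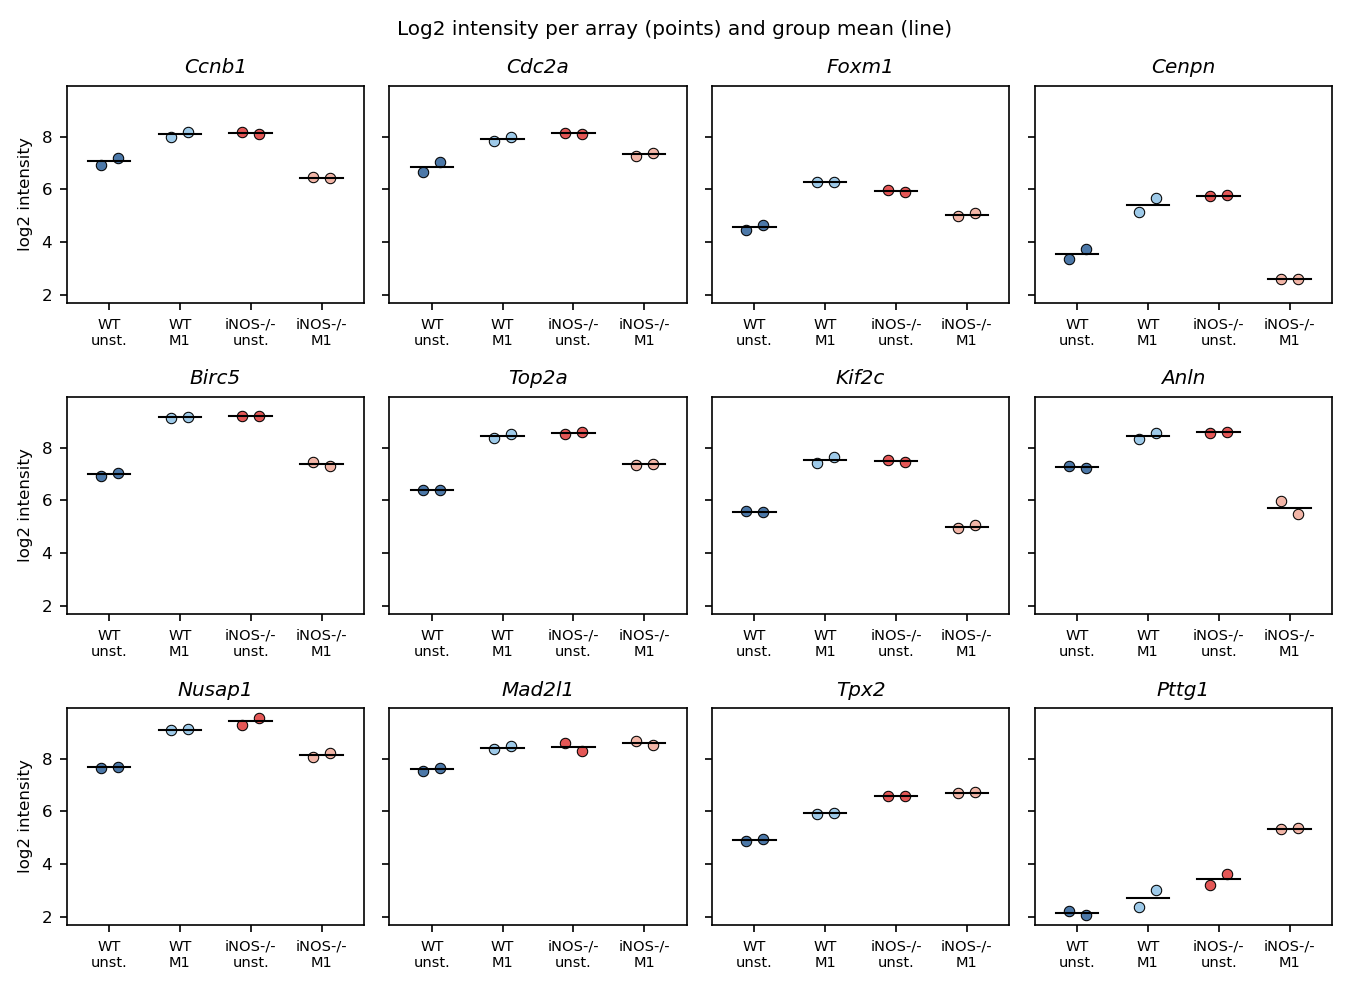
Log2 intensity of 12 genes on each array (points, 2 per group) with the group mean (line), for WT and iNOS-/- cells unstimulated (unst.) or M1. In Ccnb1, Cenpn, Kif2c and Anln the iNOS-/- M1 arrays are the lowest of all, whereas Mad2l1 and Tpx2 stay high there and Pttg1 is highest there.

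Kinetochore and centromere genes split. Of 6 tested, 4 rose in WT cells (Cenpa, Cenpn, Ndc80 and Spc25) and 5 fell in iNOS-/- cells (these 4 and Cenpk), while Spc24 rose in iNOS-/- cells. Among all probes 20.8% rose in WT cells and 25.1% fell in iNOS-/- cells. Cenpn, which reads the CENP-A nucleosome, had the most negative fitted difference in response of this role (-5.01, SE 0.31, adjusted p = 0.00047). It read 3.36 and 3.75 in WT unstimulated, 5.13 and 5.68 in WT M1, 5.74 and 5.78 in iNOS-/- unstimulated and 2.62 and 2.59 in iNOS-/- M1 cells, and it was undetected in the last group. Its rise in WT cells was 3.61-fold (adjusted p = 0.003) and its fall in iNOS-/- cells at least 7.27-fold (adjusted p = 0.00026). Cenpa, the histone H3 variant that marks centromeres, had the smallest called rise and the smallest fall of this role (0.44 in WT and -0.58 in iNOS-/- cells). Ndc80, which grips microtubules, gave 1.27 and -1.59, and Spc25 of the same complex 0.70 and -1.94. Cenpk, of the inner kinetochore, changed by 0.18 in WT cells (adjusted p = 0.64) and by -1.82 in iNOS-/- cells (adjusted p = 0.0032).

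Several of these calls were near the threshold and were lost in fits that left out 1 array. In WT cells the Spc25 call was lost in 6 of 8 fits that left out 1 array (0.52 to 0.89, all fits without a WT or an iNOS-/- unstimulated array), the Cenpa call in 4 (0.40 to 0.49, each WT array) and the Ndc80 call without WT unstimulated replicate 1 (1.17, adjusted p = 0.0616). Between the M1 groups Cenpa and Cenpk lost their calls without WT M1 replicate 2 or iNOS-/- M1 replicate 1 (-0.42 to -0.36 for Cenpa and -0.91 to -0.90 for Cenpk). Between the unstimulated groups the Cenpa call was lost without any of the 4 arrays compared (0.55 to 0.58, adjusted p from 0.0523 to 0.0591), Spc25 without WT unstimulated replicate 2 or iNOS-/- unstimulated replicate 2 (0.87 to 0.96), and Cenpk in 7 of 8 fits, all but that without WT unstimulated replicate 2 (0.60 to 1).

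Genes of the spindle checkpoint, the APC/C and anaphase were split in iNOS-/- cells. Of 6 tested, 5 rose in WT cells (Cdc20, Bub1b, Ube2c, Mad2l1 and Espl1), 3 fell in iNOS-/- cells (Cdc20, Bub1b and Espl1) and Pttg1 rose there. Among all probes 20.8% rose in WT cells, and 25.1% fell and 25.2% rose in iNOS-/- cells. Cdc20, the APC/C activator that the checkpoint restrains, rose 2.85-fold in WT cells and fell 4.14-fold in iNOS-/- cells (adjusted p = 0.00031 and 6.8e-05), and its other 3 probes moved the same ways. Bub1b encodes BUBR1 of the checkpoint complex and gave 2.59-fold and 5.60-fold. Espl1, which encodes separase, rose 3.85-fold in WT cells and fell 2.45-fold in iNOS-/- cells. It was 5.85-fold higher in unstimulated iNOS-/- than in unstimulated WT cells, the widest measured gap by brightest probe among the called genes of that comparison. Ube2c, the conjugating enzyme of the APC/C, read 0.00 and 0.00 in WT unstimulated (undetected), 3.14 and 4.05 in WT M1, 4 and 3.86 in iNOS-/- unstimulated and 3.20 and 2.5 in iNOS-/- M1 cells. Besides the WT unstimulated arrays, 1 of the iNOS-/- M1 arrays had it undetected. Its rise in WT cells was at least 2.14-fold (adjusted p = 0.0018), and its fall in iNOS-/- cells was not called (-1.08, adjusted p = 0.056).

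Pttg1, Mad2l1 and, from the spindle assembly genes, Tpx2 did not fall in iNOS-/- cells, and their arrays are given because of that, chosen after the values were seen. Pttg1 encodes securin, the inhibitor of separase. It read 2.22 and 2.07 in WT unstimulated (undetected), 2.37 and 3.04 in WT M1, 3.23 and 3.62 in iNOS-/- unstimulated and 5.32 and 5.36 in iNOS-/- M1 cells. The iNOS-/- M1 arrays were the highest, with a rise of 3.77-fold in iNOS-/- cells (adjusted p = 0.00225) and a level 6.22-fold above WT M1 (adjusted p = 0.00092). The checkpoint gene Mad2l1 read 7.52 and 7.65 in WT unstimulated and between 8.28 and 8.67 on all other arrays, so it rose in WT cells (0.83, adjusted p = 0.0082) and gave 0.17 in iNOS-/- cells (adjusted p = 0.34). Tpx2, which activates Aurora A on spindle microtubules, read 4.87 and 4.94 in WT unstimulated, 5.90 and 5.95 in WT M1, 6.59 and 6.57 in iNOS-/- unstimulated and 6.69 and 6.73 in iNOS-/- M1 cells. It rose in WT cells (1.02, adjusted p = 0.00077), gave 0.13 in iNOS-/- cells (adjusted p = 0.22) and was higher in iNOS-/- M1 than in WT M1 cells (0.79, adjusted p = 0.0011).

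The differences in response of Mad2l1 (-0.66, adjusted p = 0.042) and Pttg1 (1.36, adjusted p = 0.031) lost their calls in 7 and 5 of the 8 fits that left out 1 array. For Mad2l1 the exception was the fit without iNOS-/- unstimulated replicate 2 (-0.80), and elsewhere it was -0.51 to -0.73. Pttg1 lost the call without either WT unstimulated, either iNOS-/- M1 or the first iNOS-/- unstimulated array (1.16 to 1.43). Its call between the unstimulated groups was lost without either WT unstimulated array or iNOS-/- unstimulated replicate 2 (1.09 to 1.36). The Espl1 call between the M1 groups (-0.69, adjusted p = 0.016) was lost without WT M1 replicate 2 or either iNOS-/- M1 array (-0.62 to -0.72).

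Chromosomal passenger, cohesion and topology genes moved together. All 6 tested fell in iNOS-/- cells, 5 rose in WT cells, and 6 had a called negative difference in response. The shares over all probes were 25.1%, 20.8% and 22.6%. Birc5 encodes survivin, which takes the passenger complex to centromeres and the midzone. It read 6.94 and 7.04 in WT unstimulated, 9.13 and 9.15 in WT M1, 9.18 and 9.20 in iNOS-/- unstimulated and 7.44 and 7.29 in iNOS-/- M1 cells. WT M1 and iNOS-/- unstimulated arrays were almost level and far above the other 4. The rise was 4.44-fold in WT cells (log2 2.15, SE 0.09, adjusted p = 0.00011), the largest measured fold by brightest probe among genes called in WT cells, and the fall 3.54-fold in iNOS-/- cells (log2 -1.82, SE 0.09, adjusted p = 9.8e-05). Its 3 probes gave differences in response of -3.81 to -4.04.

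Top2a, the topoisomerase that untangles sister chromatids, read 6.4 and 6.38 in WT unstimulated, 8.38 and 8.53 in WT M1, 8.52 and 8.57 in iNOS-/- unstimulated and 7.34 and 7.39 in iNOS-/- M1 cells. In iNOS-/- M1 cells it stayed about 1 log2 unit above WT unstimulated cells. It rose 4.18-fold in WT cells (adjusted p = 0.00011) and fell 2.27-fold in iNOS-/- cells (adjusted p = 0.00031). Cdca8, which encodes the passenger subunit borealin, rose and fell by nearly equal amounts (1.83 and -1.83). Cdca3, which helps mitotic entry, gave 1.72 and -1.94, and Cdca5, sororin, which protects cohesin, gave 1.05 and -1.82. Incenp, the scaffold of the passenger complex, fell in iNOS-/- cells (-1.66, adjusted p = 0.0061) and gave 0.31 in WT cells (adjusted p = 0.45), with its iNOS-/- M1 arrays at 6.54 and 5.69. Without WT unstimulated replicate 1 or either WT M1 array the Cdca5 call in WT cells was lost (0.70 to 1.13), and without WT M1 replicate 2 those of Cdca5 and Incenp between the M1 groups (-1.22 and -1.20). The Cdca5 call between the unstimulated groups was lost without iNOS-/- unstimulated replicate 2 (1.41, adjusted p = 0.0509), as was the Incenp difference in response (-1.89, adjusted p = 0.0508).

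Kinesins are the motors of the spindle. All 5 tested fell in iNOS-/- cells and were higher in unstimulated iNOS-/- than unstimulated WT cells, and 4 rose in WT cells. The shares over all probes were 25.1%, 16.7% and 20.8%. Kif2c, which takes microtubules apart at centromeres, read 5.58 and 5.57 in WT unstimulated, 7.43 and 7.65 in WT M1, 7.52 and 7.47 in iNOS-/- unstimulated and 4.96 and 5.06 in iNOS-/- M1 cells. WT M1 and iNOS-/- unstimulated arrays overlapped, and iNOS-/- M1 arrays were the lowest. It rose 3.91-fold in WT cells (adjusted p = 0.00022) and fell 5.60-fold in iNOS-/- cells (adjusted p = 6.2e-05), a difference in response of -4.45 (SE 0.15, adjusted p = 0.00015), the most negative by brightest probe among genes detected in all 4 groups. Kif11, which pushes spindle poles apart, gave 1.89 and -2.22, and Kif22, a chromosome-arm motor, 1.47 and -2.03. Kif23, of the midzone complex centralspindlin, fell by 2.80 in iNOS-/- cells (adjusted p = 0.00068) and gave 0.78 in WT cells (adjusted p = 0.075).

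Kif4, a chromosome-bound motor that also shapes the midzone, was the kinesin that fell least. It rose 3.80-fold in WT cells (adjusted p = 0.00033) and fell 1.35-fold in iNOS-/- cells (log2 -0.44, SE 0.12, adjusted p = 0.027), with iNOS-/- M1 arrays at 6.38 and 6.56 against 5 and 4.89 in WT unstimulated cells. Its other 2 probes gave -0.22 and -0.14 in iNOS-/- cells, neither called, and rose in WT cells. Its fall lost the call without either iNOS-/- unstimulated array or the first iNOS-/- M1 array (-0.35 to -0.45), and its call between the M1 groups was lost in 6 of 8 fits (-0.30 to -0.40), all but those without WT M1 replicate 2 or iNOS-/- M1 replicate 2. The call of Kif23 between unstimulated groups was lost without any of the 4 arrays compared (1.19 to 1.37).

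Of the genes that bundle and organize spindle microtubules, Nusap1 and Prc1 rose in WT and fell in iNOS-/- cells and Tpx2 rose in WT cells alone. Nusap1, which bundles microtubules near chromosomes, read 7.65 and 7.69 in WT unstimulated, 9.07 and 9.11 in WT M1, 9.28 and 9.54 in iNOS-/- unstimulated and 8.07 and 8.21 in iNOS-/- M1 cells. No groups overlapped, and WT unstimulated arrays were lowest. The rise was 2.67-fold (adjusted p = 0.00096) and the fall 2.41-fold (adjusted p = 0.00064). Prc1, which crosslinks the midzone, rose 2.18-fold in WT cells and fell 2.89-fold in iNOS-/- cells.

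Anln encodes anillin, the scaffold of the contractile ring, and is the cytokinesis gene that was tested. It read 7.30 and 7.21 in WT unstimulated, 8.33 and 8.55 in WT M1, 8.55 and 8.59 in iNOS-/- unstimulated and 5.96 and 5.47 in iNOS-/- M1 cells. Both iNOS-/- M1 arrays lay over 1 log2 unit below every other array. The fall in iNOS-/- cells was 7.21-fold (log2 -2.85, SE 0.18, adjusted p = 0.0002), against a rise of 2.27-fold in WT cells (log2 1.19, SE 0.18, adjusted p = 0.007). By brightest probe, that fall was the largest measured fold among members called lower in iNOS-/- cells. A dimmer Cdc20 probe fell 7.34-fold, and the bound of Cenpn was at least 7.27-fold.

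Across roles, measured folds of called genes in WT cells ran from 1.36 (Cenpa) to 4.44 (Birc5) with a median of 2.67 over 27 genes, and those of the genes that fell in iNOS-/- cells from 1.35 (Kif4) to 7.21 (Anln) with a median of 3.53 over 27 genes. The genes higher in unstimulated iNOS-/- than WT cells ran from 1.48 (Cenpa) to 5.85 (Espl1), with a median of 2.98 over 30 genes. Genes lower in iNOS-/- M1 than WT M1 cells ran from 1.32 (Kif4) to 6.58 (Anln), with a median of 3.01 over 27 genes. These ranges use the brightest probe of a gene and leave out genes undetected on both arrays of a group.

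Genes with several probes give a partial check within the arrays. There were 13 such genes with 32 tested probes, in 11 all probes gave 1 sign of the difference in response, and in 10 all were called in that sign. Nusap1 is the gene whose probes gave 1 sign without all being called, its 2 dimmer probes being detected on 3 arrays each. Those Nusap1 probes and a dimmer probe each of Cdc25c and Melk were detected in WT M1 and iNOS-/- unstimulated cells alone. The dimmer tested Anln probe was detected in iNOS-/- unstimulated cells alone. All of these passed the detection filter through groups where they are high, so their negative sign is no check. In Spc24 and Cdc2a the fitted values differed in sign. Spc24, of the Ndc80 complex, read 7.15 and 6.90 in WT unstimulated, 6.69 and 6.59 in WT M1, 7.01 and 7.17 in iNOS-/- unstimulated and 7.66 and 7.65 in iNOS-/- M1 cells at its brightest probe, a difference in response of 0.95 (SE 0.17, adjusted p = 0.0091). Its dimmer probe, detected on 6 arrays, gave -3.69 (SE 0.96, adjusted p = 0.03), like the other members. The rise of the brightest Spc24 probe in iNOS-/- cells (0.56, adjusted p = 0.013) was lost without iNOS-/- unstimulated replicate 1 or iNOS-/- M1 replicate 1 (0.48 to 0.56). The dimmer Cdc2a probe was detected on the 2 iNOS-/- M1 arrays alone, at 3.04 and 3.07, and gave a fitted 3.94 (SE 0.50, adjusted p = 0.0032) against -1.85 (SE 0.20, adjusted p = 0.002) at the brightest. It passed the detection filter through the group where it is high and was undetected in the other 3 groups, so 3.94 is no measured difference. It is 1 of the 3 positive calls among member probes, and against background it was at least 1.66-fold higher in iNOS-/- M1 than iNOS-/- unstimulated cells. What sets these probes apart was not tested, and both genes are uncertain to that extent.

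**Figure D5:**
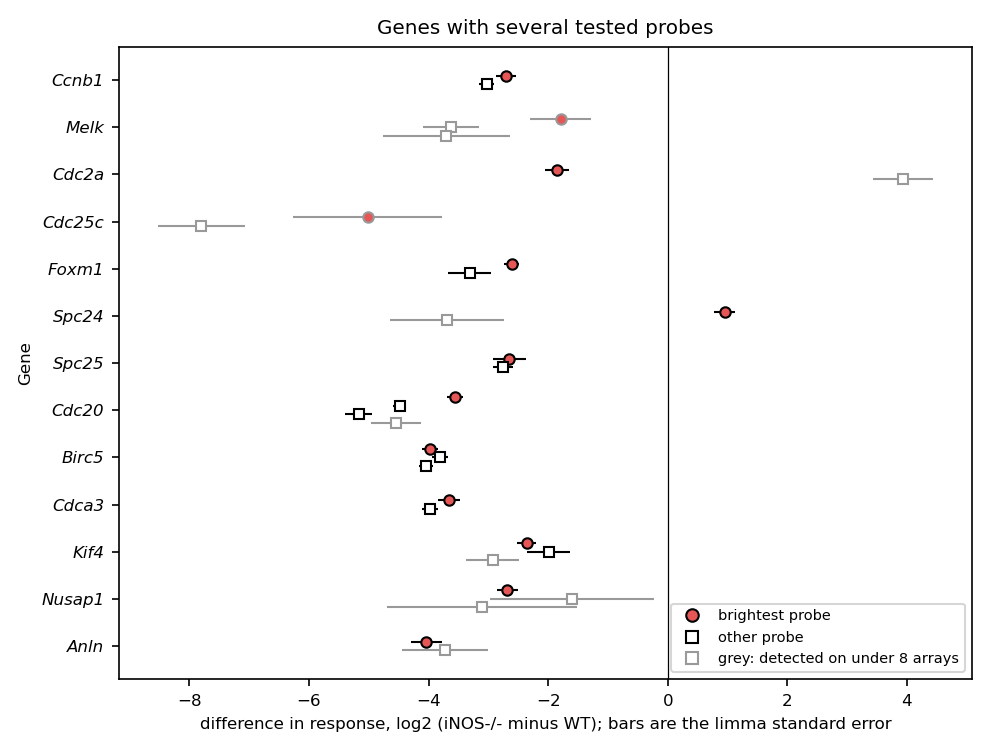
Difference in response (change in iNOS-/- minus change in WT cells, log2) at each tested probe of the 13 genes with several probes, with the limma standard error as bars, the brightest probe as a circle, the others as squares, and probes detected on fewer than 8 arrays in grey. All probes lie left of 0 except the brightest Spc24 probe at 0.95 and the dimmer Cdc2a probe at 3.94.

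Other genes of the cell cycle were taken from lists of general knowledge. Over all tested probes, 20.8% rose and 14.3% fell in WT cells, 25.2% rose and 25.1% fell in iNOS-/- cells, and the difference in response was called negative in 22.6% and positive in 19.4%. Of 34 tested mitotic genes outside the member list, 22 rose and 1 fell in WT cells, 2 rose and 21 fell in iNOS-/- cells, and the difference in response was called negative in 25 and positive in 0, with a median of -2.84. The condensin subunit Ncapd2 rose by 2.19 in WT cells and fell by 2.14 in iNOS-/- cells, and Sgol1, which shields centromeric cohesin, rose by 1.09 and fell by 2.59. Of 9 tested genes of the APC/C list, core subunits and the activator gene Fzr1, which are not made chiefly in mitosis, 3 rose and 1 fell in either genotype, and the difference in response was called negative in 3 and positive in 0, with a median of 0.12 and a range from -1.36 to 0.91. Fzr1 is among those that rose in WT (1.41) and in iNOS-/- cells (0.37) and among the negative differences in response (-1.05). Of 34 replication fork genes, 21 rose and 2 fell in WT cells, 1 rose and 23 fell in iNOS-/- cells, and the difference in response was called negative in 29 and positive in 1 (median -1.76). Tk1, which supplies thymidine nucleotides, rose by 1.61 in WT cells and fell by 2.75 in iNOS-/- cells, and the helicase gene Mcm2 rose by 1.67 and fell by 2.03.

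Regulators of G1 went several ways. Of 14 tested cyclins, CDKs and CDK inhibitors of G1, 7 rose and 1 fell in WT cells and 6 rose and 4 fell in iNOS-/- cells, and the difference in response was called negative in 8 and positive in 2 (median -1.59). Cdkn2c, an inhibitor of CDK4 and CDK6, rose by 1.34 in WT cells and fell by 1.82 in iNOS-/- cells (adjusted p = 0.00255 and 0.000437), as most mitotic members did. The D cyclins Ccnd1 and Ccnd2, which carry growth signals into the cycle, rose in both genotypes, by 4 and 6.11 in WT and by 0.66 and 3.83 in iNOS-/- cells (adjusted p from 1.21e-05 to 0.0251). Of 15 genes of the E2F, RB and MYBL2 list, 4 rose and 1 fell in WT cells, near the share over all probes, and 3 rose and 8 fell in iNOS-/- cells. The difference in response was called negative in 7 and positive in 1 (median -0.66). Mybl2, the B-Myb factor that acts with MuvB on mitotic promoters, rose by 1.78 in WT cells and fell by 1.51 in iNOS-/- cells (adjusted p = 0.00731 and 0.00759), as most members did. The S phase activators E2f1 and E2f2 fell in iNOS-/- cells (-1.96 and -3.41, adjusted p = 0.000137 and 2.51e-05) and gave 0.28 and 0.00 in WT cells (adjusted p = 0.105 and 0.991).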

How the data were processed

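The authors deposited, for each of the 8 arrays, the bead-averaged intensity and the detection p-value of 25697 probes as exported from GenomeStudio. The labels name the MouseRef-8 array in one place and MouseWG-8 in another. The file header names neither normalization nor background subtraction, yet the deposited intensity of undetected probes centres near 0, so no further background was subtracted here. The authors' methods name background subtraction, rank-invariant normalization, 1 for negative values, log2 and limma (3.14.4 in the processing notes). Their comparison values were not used, and 0 value columns were left without a sample.

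A robust regression with no intercept (MASS 7.3.60.0.1) was fitted between every array and the mean array, and its slope scaled the array. It used probes at rank shares of 0.5 to 0.9 whose rank differed by less than 0.05 times their rank on the mean array. Values under 1 became 1 before log2. The 13868 probes detected (p-value below 0.05) on 2 or more arrays entered a one-way model of the 4 groups in limma 3.58.1 (R 4.3.3), with Benjamini-Hochberg adjustment and calls at an adjusted p under 0.05. Fitted fold changes of dim probes depend on the floor. For a probe undetected on both arrays of a group, the fold is a bound ("at least"), set against the higher of its own value and the lowest value of a detected probe on each array. The number of arrays limits the precision, and the deposited intensity has no read depth.

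A gene is described by its brightest probe. Array values are given for the gene with the largest difference in response in each role, and for Ccnb1, Top2a, Foxm1 and Cdc2a. Members of other lists are named if among the 4 largest called differences in response with detection on all arrays. The members and lists were chosen with earlier results of these data known. The procedure was tested on simulated data. Alternatives were neqc, quantile normalization, an intercept in the scaling line, a floor of 16, no detection filter, detection on all arrays, a fit on the 4 arrays compared, a replicate block, an intensity trend, a 2-fold minimum, averaged probes and each array left out. Promoter windows came from RefSeq through Entrez identifiers. The build of the array's annotation is not given in the sources used here, so probes are not placed on the genome.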

Additional observations from a re-analysis of the deposited data

Results flagged for a closer look

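The response to LPS plus IFN-γ differed between WT and iNOS-/- cells at 52 of the 57 tested member probes (49 negative, 3 positive), by the interaction term of the limma model, which tests the difference itself. Over all tested probes 42% were called, 22.6% negative and 19.4% positive. By brightest probe, 35 genes were called, and their differences in response (change in iNOS-/- minus change in WT cells, log2) follow by role. Among cyclins and kinases they were -2.71 for Ccnb1, -3.96 for Plk1, -2.47 for Aurka, -3.68 for Pbk, -1.79 for Melk and -1.85 for Cdc2a, and for the phosphatase gene Cdc25c -5.02. Kinetochore genes gave -1.02 for Cenpa, -2.0 for Cenpk, -5.01 for Cenpn, -2.87 for Ndc80 and -2.65 for Spc25, with 0.95 for Spc24. Checkpoint and anaphase genes gave -3.56 for Cdc20, -3.86 for Bub1b, -4.67 for Ube2c, -0.66 for Mad2l1 and -3.24 for Espl1, with 1.36 for Pttg1. Passenger, cohesion and topology genes gave -3.98 for Birc5, -3.25 for Top2a, -3.66 for Cdca3, -2.87 for Cdca5, -3.65 for Cdca8 and -1.97 for Incenp. Kinesins gave -4.11 for Kif11, -3.5 for Kif22, -3.57 for Kif23, -4.45 for Kif2c and -2.36 for Kif4. The remaining values were -2.61 for Foxm1, -2.68 for Nusap1, -2.65 for Prc1, -0.88 for Tpx2 and -4.04 for Anln. Those of Cenpn, Cdc25c, Ube2c and Pttg1 are fitted values that rest on a group in which the probe was undetected on both arrays, so their sizes are not measured differences. Groups of 2 arrays are too small for a check of single outlying arrays.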

How the results depend on the processing

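The median change of member probes kept its sign under every alternative run, in all 5 comparisons. Against 1.51, -1.82, 1.58, -1.59 and -3.31 (stimulation in WT, stimulation in iNOS-/-, unstimulated groups, M1 groups, difference in response), it was 0.87, -1.19, 1.07, -0.99 and -1.94 after neqc, 1.16, -1.42, 1.32, -1.31 and -2.51 where the scaling line had an intercept, and 1.05, -1.44, 1.31, -1.23 and -2.65 with a floor of 16. It was 1.35 in WT cells after quantile normalization, 1.27 (WT), -1.66 (iNOS-/-), -1.32 (M1 groups) and -2.87 (difference in response) over all 69 probes without a detection filter, and 1.39 (WT) and -3.14 (difference in response) with probes of a gene averaged. With that averaging 34 of 38 member genes were called for the difference in response, against 43.5% of all genes tested. With 1 array left out, the medians ran from 1.44 to 1.51, -1.83 to -1.75, 1.58 to 1.71, -1.63 to -1.58 and -3.5 to -3.11. Replicate numbers did not pair the arrays (correlations of deviations from -0.034 to 0.027 over 9687 probes). With a replicate block 40, 43, 44, 46 and 49 member probes were called, against 31%, 47.7%, 28.1%, 45.3% and 38.4% of all probes tested.

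Single genes turned sign as follows. In WT cells Cenpk gave -0.07 (neqc), -0.11 (quantile normalization), -0.11 (intercept) and -0.16 (without WT unstimulated replicate 1), Cdc25b -0.16, -0.26, -0.18, -0.2 (without WT unstimulated replicate 2) and -0.02 (without WT M1 replicate 1), and Pttg1 -0.4 (intercept). With 1 array left out, the highest values of these were 0.52 for Cenpk and 0.26 for Cdc25b in WT cells, and 0.19 for Spc24 and 1.9 for Ttk between unstimulated groups. In iNOS-/- cells Mad2l1 gave -0.02 after neqc and after quantile normalization. Between unstimulated groups Ttk gave -0.02 (neqc), -0.44 (intercept) and -0.71 (without WT unstimulated replicate 1), and Spc24 -0.06 (without WT unstimulated replicate 2) and -0.01 (without iNOS-/- unstimulated replicate 2). Between M1 groups Ube2c gave 0.15 and Melk 0.38 (intercept), and Melk 0.01 without WT M1 replicate 2. Over all single-gene values and alternatives, 2915 stayed on their side of the threshold, 165 lost and 52 gained a call. With the intercept the median of all probes was -0.1, 0.2, -0.12, 0.24 and 0.33 in the 5 comparisons. In the main fit it was 0.09, 0, 0, -0.03 and -0.05. The intercept moved the higher share of all calls from 47.5% to 58.4% (M1 groups) and from 46.1% to 59.7% (difference in response). Causes were not tested. Probes near background limit Ccna2, Ttk, Cdc25b, Cdc25c, Ube2c, Melk and Pttg1.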
